A study of Mus musculus with 11 samples.

Results

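Mural cells, the cells that wrap brain vessels from outside the endothelium, were described through 10 genes taken by name: the contractile genes Acta2, Tagln, Myh11, Myl9, Cnn1 and Des, the pericyte genes Kcnj8, Vtn and Atp13a5, and Rgs5, a gene of both kinds of mural cell. They were read from the gene column of the count tables of all 11 libraries and are 10 of the 23940 genes seen in at least 3 kept cells. Mural cells were found by clustering without these 10 genes and numbered 1515 of 50625 kept cells, of which 531 were juvenile, 431 adult, 281 aged and 272 from mice with experimental autoimmune encephalomyelitis (EAE). All cells were dissociated from cerebral cortex of C57BL/6 mice, depleted of myelin on an albumin gradient and captured by the 10x 3′ v2 assay, which counts transcript copies by unique molecular identifiers (UMIs). By the paper's methods, mice of all groups were female where nothing else is stated. The juvenile group (4 libraries, postnatal day 10, P10), the adult group (3 libraries, 7–11 weeks) and the aged group (2 libraries, 18 months) were untreated. The EAE group (2 libraries) came from female mice of 7–11 weeks immunized with a myelin oligodendrocyte glycoprotein peptide in complete Freund's adjuvant, with pertussis toxin, and taken at the peak of disease. Each juvenile or adult library pooled the cortex of 6 mice, and each aged or EAE library that of 3, so that no value belongs to 1 animal, and the labels do not say whether libraries of a group came from separate pools of mice. P-values therefore measure the spread between libraries, which may be technical.

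Mural cells of the brain are arterial and arteriolar smooth muscle cells, which lie as rings around larger vessels and set their diameter, and pericytes, which lie embedded in the basement membrane of capillaries and hold up the blood-brain barrier. Smooth muscle contracts when calcium and calmodulin activate a kinase that phosphorylates myosin light chain, and its actin, myosin and actin-binding proteins are driven together by serum response factor with its partner myocardin. Pericytes depend on platelet-derived growth factor from the endothelium, and in the brain carry ATP-sensitive potassium channels that link their membrane potential to metabolism.

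The products and places of the 10 genes are as follows (GENCODE annotation of GRCm38, protein-coding genes, whole gene span). Acta2 (chr19:34241090-34255590, minus strand) encodes smooth muscle alpha-actin, and Myh11 (chr16:14194535-14291372, minus strand) the smooth muscle myosin heavy chain. Myl9 (chr2:156775420-156781658, plus strand) encodes the regulatory myosin light chain, Tagln (chr9:45929619-45936058, minus strand) the actin-binding protein transgelin, and Cnn1 (chr9:22099216-22109630, plus strand) calponin, which binds actin and slows the myosin ATPase. Des (chr1:75360329-75368579, plus strand) encodes desmin, the intermediate filament of muscle. Rgs5 (chr1:169655501-169695813, plus strand) encodes a regulator that shortens signals of G-protein-coupled receptors. Kcnj8 (chr6:142564837-142571614, minus strand) encodes the pore of an ATP-sensitive potassium channel, Vtn (chr11:78499091-78502324, plus strand) the secreted matrix protein vitronectin, and Atp13a5 (chr16:29231851-29378732, minus strand) an ATPase of the P5 family. Tagln overlaps Pcsk7 and Des overlaps Gm15179 on the opposite strand, and Atp13a5 overlaps Gm15752 on the same strand. Whether reads were assigned by strand is not given in the sources used here, so reads of these overlaps cannot be told apart.

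To show the regulatory element by which smooth muscle genes are known, the bases upstream of Myl9 and of Rgs5 are printed from the RefSeq promoter windows of GRCm38.p6 (300 bases, of which 250 lie before the start). A CArG box, the binding element of serum response factor, was searched on both strands as the exact pattern CCWWWWWWGG (W: A or T) and is printed in capitals. Variants of this pattern, and bases beyond the windows, were not searched, so a member without a match may still hold such an element. Of the 8 members that had a window, only Myl9 held this exact pattern, at chr2:156775303-156775312, 161 bases before the RefSeq start. The box was found in 535 of 32851 windows (1.63%). The window of Rgs5 holds none, and both stretches end at the base before the annotated gene.
Myl9, chr2:156775214-156775419, plus strand: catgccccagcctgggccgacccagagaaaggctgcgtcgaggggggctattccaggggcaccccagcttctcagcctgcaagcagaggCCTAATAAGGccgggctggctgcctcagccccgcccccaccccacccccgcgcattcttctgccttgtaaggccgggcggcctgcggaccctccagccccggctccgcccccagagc
Rgs5, chr1:169655251-169655500, plus strand: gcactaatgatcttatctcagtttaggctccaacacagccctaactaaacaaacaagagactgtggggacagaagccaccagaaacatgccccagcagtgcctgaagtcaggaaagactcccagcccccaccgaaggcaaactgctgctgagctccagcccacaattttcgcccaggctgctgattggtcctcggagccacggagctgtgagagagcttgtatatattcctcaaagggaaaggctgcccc
A match describes these letters and no binding was measured. Tagln and Myh11 had no window.

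Libraries held 15755504 to 34326349 UMIs and 2552 to 8322 kept cells, and 61 to 223 of these were mural. Mural cells were 7.51%, 7.56% and 7.00% of kept cells in juvenile 1, juvenile 2 and adult 1, and 1.48% to 2.87% in all others. The same libraries held 473, 465 and 176 endothelial cells, against 955 to 3556 in all others. This split runs across the juvenile and adult groups, and its part in their shares and differences was not tested. Pairs of libraries shared 10 to 113 barcode sequences. Adult 1 stood apart from the other adult libraries: markers of choroid plexus epithelium summed to 67450 CPM in its mural cells (CPM: counts scaled to the same total in every library), against 5033 to 33339 CPM in the other libraries, and erythrocyte genes to 18351 CPM, against 85.2 to 13019.7 CPM there. The chi-square of summed mural counts per gene was 2.02 between adult 2 and adult 3, but 6.07 and 7.79 between adult 1 and these. Adult 2 and 3 were counted as 1 of 2 adult replicate units, although they too differed by more than counting noise. Results of members that turn on adult 1 are given with and without it, and values of other genes only with it. Markers of endothelial cells, all 7 of them seen in each library, summed to 675–1122 CPM in juvenile, 1702–2080.1 in adult, 2629–2653 in aged and 3396–3444 in EAE mural cells. Of 6 markers of monocytes and macrophages 4 or 5 were seen in the EAE libraries, at 170.4 to 259 CPM in sum with Arg1 at 0 in both, and their sum was at most 25.4 CPM elsewhere. The 6 markers of perivascular macrophages, all seen in EAE, summed to 188–213 CPM there and to 11.0–99.6 CPM elsewhere.

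Each of the 10 had its highest level in mural cells in 11 of 11 libraries, among cell types with at least 20 cells. Rgs5 lay 62.2 to 436 times above the next type of the library, Kcnj8 25.4 to 132 times, Myh11 20.3 to 624 times and Tagln 19.2 to 407 times. The margin was narrower for Vtn, which lay 1.24 to 291 times above the next type. That type was fibroblasts in the juvenile libraries and adult 1 (747 to 2512 CPM), choroid plexus epithelium in adult 2 and 3 and the aged libraries (77.2 to 111 CPM), and neutrophils and ependymal cells in EAE 1 and 2 (69.2 and 54.6 CPM). Des lay 2.49 to 345 times and Cnn1 3.69 to 292 times above the next type. Ependymal cells were the next type for Acta2 (244 to 346 CPM) and Cnn1 (8.34 to 36.4 CPM) in the 6 juvenile and EAE libraries, and for Tagln in 4 of these. In these 6 libraries mural cells held Cnn1 at 43.9 to 276 CPM. Astrocytes were the next type for Atp13a5 in 10 libraries, at 10.8 to 29.4 CPM. In endothelial cells, which are not known for these genes, 1.16% of cells held an Acta2 UMI and 2.34% a Vtn UMI (medians over 11 libraries, all cells thinned to 1500 UMIs), against 38.3% and 75.0% of mural cells. The highest library was at 2.81% and 13.2%. Before thinning, Vtn was seen in 38.1% of endothelial cells and 40.0% of microglia of adult 1. In adult 2 and 3 it was seen in 10.9% and 11.5% of endothelial cells and in 8.06% and 8.28% of microglia.

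Subclustering without the members gave clusters named smooth-muscle-like (451 cells) and pericyte-like (747 cells) from other genes, and the members, which had taken no part, were on opposite sides. Acta2 was at 11824 to 16723 CPM (median 14355) in smooth-muscle-like cells of the 11 libraries and at 0 to 172 CPM (median 22.0) in pericyte-like cells. Tagln had medians of 8607 and 28.6 CPM, and Myh11 of 1820 and 34.5 CPM. Cnn1 had a median of 292 CPM in smooth-muscle-like cells and was seen in the pericyte-like cells of 1 library, adult 1, at 2.90 CPM. In the other 10 libraries it had no UMI in these cells, where 3 counts correspond to 15.1 to 45 CPM.

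Myl9 and Des were shared by both populations at unequal levels. Myl9 was at 6842 to 9246 CPM in smooth-muscle-like and at 1853 to 4288 CPM in pericyte-like cells, and Des at 541 to 943 and 136 to 386 CPM. Both were higher in smooth-muscle-like cells in 11 of 11 libraries. On the pericyte side Vtn was at 8348 to 34732 CPM in pericyte-like and at 43.3 to 3602 CPM in smooth-muscle-like cells, Kcnj8 at 1694 to 3495 and 0 to 121 CPM, and Atp13a5 at 1009 to 4085 and 0 to 164 CPM. Rgs5 was abundant in both, at 5596 to 17468 CPM in pericyte-like and 2188 to 14789 CPM in smooth-muscle-like cells, and was higher in pericyte-like cells in all libraries but juvenile 4. As the groups come from the same cells, no test was made of these differences. The plot of the members in both subclusters gives the value of each library.

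**Figure D1:**
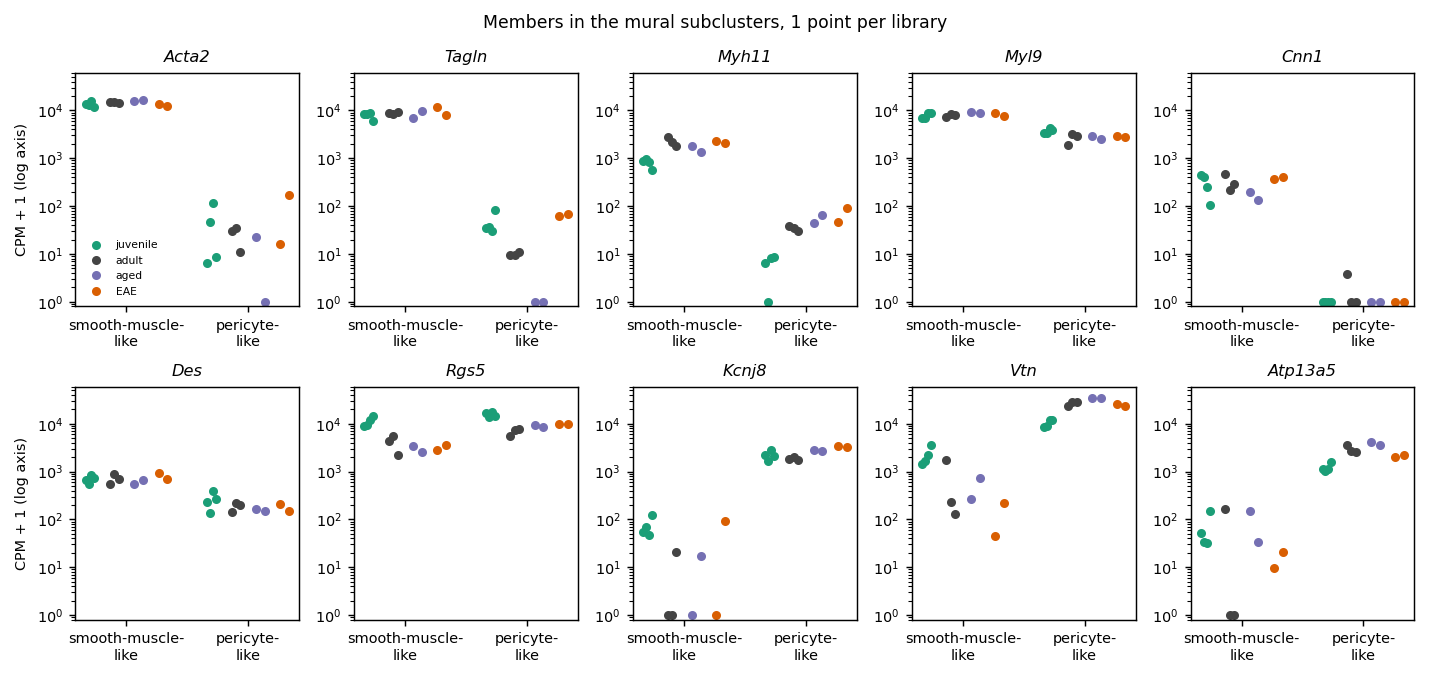
Level of the 10 genes in smooth-muscle-like and pericyte-like mural cells (vertical axis: CPM + 1, log axis), 1 point per library, coloured by group. Acta2, Tagln, Myh11 and Cnn1 lie at or near the floor in pericyte-like cells, Kcnj8, Vtn and Atp13a5 lie lower in smooth-muscle-like cells, and Rgs5 is high in both, with juvenile libraries on top.

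Different clusters carried these names at different ages. The pericyte-like class was made of 1 cluster of mostly adult, aged and EAE cells (608 cells, 7 of them juvenile), led by Ggt1, Slc6a13 and Pla1a, and of 1 cluster of 139 cells, 138 of them juvenile, whose 10 leading genes include none of the pericyte markers although 11 of the 12 were seen. The smooth-muscle-like class was likewise made of a juvenile cluster (288 cells, 284 juvenile), led by Actg2, and a cluster of 163 cells, 3 of them juvenile, led by Sncg and Pln. A cluster of 186 cells carried endothelial and antigen presentation genes such as Ly6c1 and Cd74 beside mural ones and is called mixed, and it held 4 juvenile, 52 adult, 53 aged and 77 EAE cells. Its endothelial markers lay above other mural cells by a mean of 2.55 on the log2 scale. Markers of choroid plexus epithelium (2.31), erythrocytes (1.79), microglia (1.66) and perivascular macrophages (0.88) were also higher in it. A cluster of 131 cells, 95 of them juvenile, was led by Steap4 and Ccl19 and was left unnamed. Comparisons of juvenile with adult cells within a class therefore set 1 cluster against another, while adult, aged and EAE cells of a class lay mostly in the same cluster.

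In whole mural cells Acta2 and Tagln had their highest means in juvenile libraries, with a wide spread between adult ones. Acta2 was at 9189, 8363, 8829 and 5040.3 CPM in juvenile, at 1318, 5048 and 6409 CPM in adult 1, 2 and 3, at 2740.1 and 4483 CPM in aged and at 5576 and 4141 CPM in EAE libraries. Juvenile 4 lay below adult 2 and 3, so the groups overlapped, and adult 1 was the lowest of the 11. The order of the means was juvenile (7855 ± 1907 CPM, SD, n = 4), EAE (4859 ± 1014, n = 2), aged (3611 ± 1232, n = 2) and adult (3523 ± 3118, n = 2), and no neighbours in it differed by more than the spread of the adult units. Tagln was at 5731, 5448, 4777 and 2606 CPM in juvenile, 783, 2905 and 4089 CPM in adult, 1171 and 2612 CPM in aged and 4795 and 2775 CPM in EAE libraries. Juvenile 4 again lay below adult 2 and 3.

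Myh11 showed no juvenile excess. It was at 561, 613, 470.2 and 252 CPM in juvenile, 267, 747 and 838 CPM in adult, 349 and 411 CPM in aged and 944 and 711 CPM in EAE libraries. Its mean was highest in EAE (828 ± 165 CPM, n = 2) and lowest in aged mural cells (379.7 ± 43.7, n = 2), with adult libraries spread over both. Myl9 was at 5629, 5549.9, 6783 and 5844 CPM in juvenile, 2050.2, 4869 and 4967 CPM in adult, 3591 and 4055 CPM in aged and 4553 and 3630.3 CPM in EAE libraries. All juvenile libraries lay above all others for Myl9. Cnn1 was at 276, 263, 137 and 43.9 CPM in juvenile, 43.1, 70.5 and 129 CPM in adult, 37.4 and 33.9 CPM in aged and 153 and 134 CPM in EAE libraries. Des was at 548, 465, 629.8 and 486 CPM in juvenile, 162, 451 and 439 CPM in adult, 212 and 301 CPM in aged and 454 and 278 CPM in EAE libraries, again with all juvenile libraries above the others.

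Rgs5 had a juvenile excess in every library. It was at 11237, 11021, 14233 and 14199.7 CPM in juvenile, 4863, 7177 and 4901 CPM in adult, 6879 and 6053 CPM in aged and 4419 and 4895 CPM in EAE libraries. The lowest juvenile library was above the highest of the other groups. The means were 12673 ± 1785 CPM (n = 4) in juvenile, 6466 ± 584 in aged, 5451 ± 831 in adult and 4657 ± 337 in EAE mural cells (n = 2 each).

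Of the pericyte genes, Vtn and Atp13a5 were lower in every juvenile than in every adult library, and Kcnj8 overlapped. Vtn was at 3109.8, 3420.0, 6201 and 7665 CPM in juvenile, 18729, 17075 and 14006 CPM in adult, 23063 and 20034 CPM in aged and 8053 and 9688 CPM in EAE libraries. These 4 groups did not overlap, in the order aged, adult, EAE, juvenile, and their means were 21548 ± 2142, 17135 ± 2254, 8871 ± 1156 (n = 2 each) and 5099 ± 2204 CPM (n = 4). Atp13a5 was at 238, 239, 476 and 874 CPM in juvenile, 2950.25, 1603 and 1189 CPM in adult, 2678 and 2023 CPM in aged and 745 and 878 CPM in EAE libraries. Its juvenile and EAE libraries overlapped, and all lay below the adult and aged ones. Kcnj8 was at 695, 579, 1206 and 1177 CPM in juvenile, 1456, 1278 and 940.25 CPM in adult, 1856 and 1435 CPM in aged and 1068 and 1199 CPM in EAE libraries, which overlapped between all neighbouring groups. Library by library, 5 of the 10 members did not overlap between juvenile and adult, where 33.6% of tested genes did not. In aged these were Vtn and Cnn1, with 27.8% of genes, and in EAE Vtn, Atp13a5 and Cnn1, with 34.8%.

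**Figure D2:**
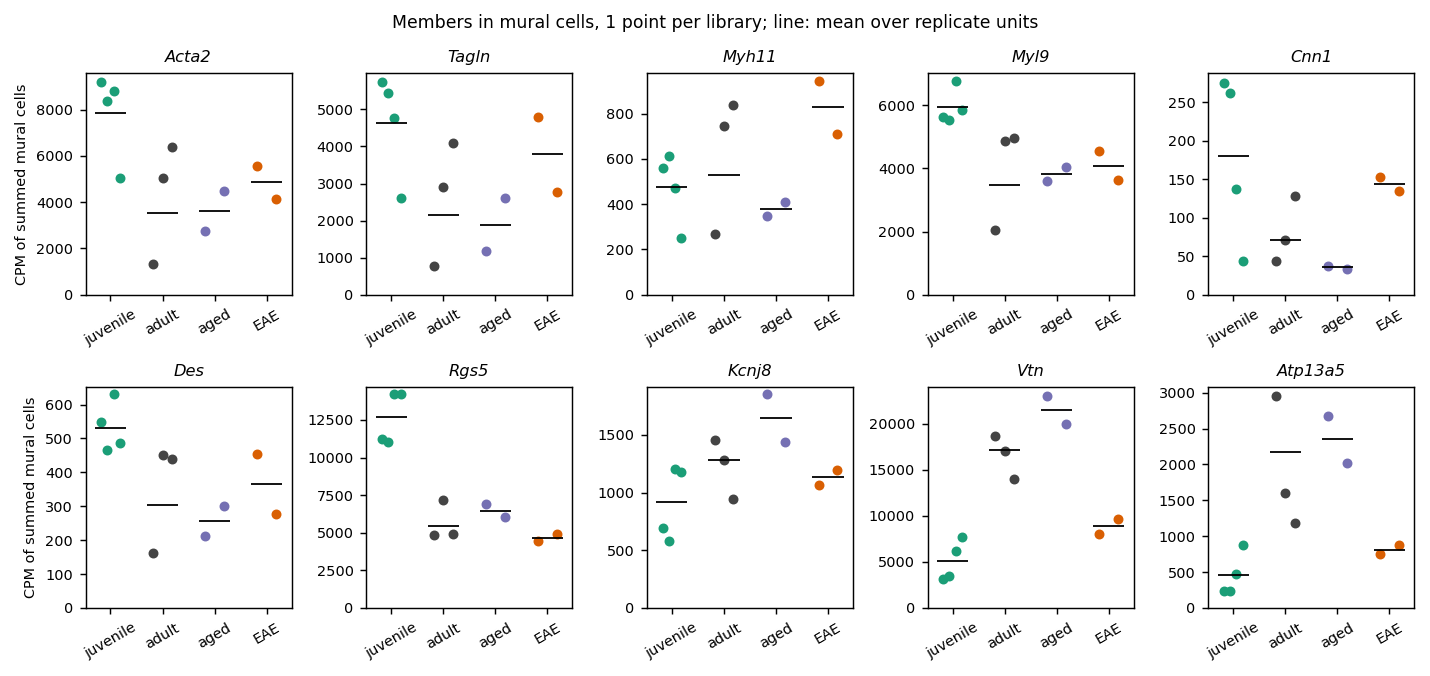
Level of the 10 genes in summed mural cells (vertical axis: CPM, from 0), 1 point per library, with a line at the mean over replicate units (adult 2 and 3 count as 1). Juvenile libraries lie on top for Rgs5, Myl9 and Des and at the bottom for Vtn, and adult 1 is the lowest of the adult libraries for the contractile genes and the highest for Vtn and Atp13a5.

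Juvenile and adult mural cells were compared in 1 edgeR quasi-likelihood fit to the summed counts of all groups, with p-values adjusted over all 6527 genes tested by the Benjamini-Hochberg method and calls at 0.05. All comparisons share the same adult units. Of the 10 members, all tested, 3 were called, where 25.3% of all genes were (12.1% higher and 13.2% lower). Rgs5 rose in juvenile mural cells by 1.15 on the log2 scale (SE 0.18, adjusted p = 0.000317). Vtn fell by 1.83 (SE 0.30, adjusted p = 0.00167) and Atp13a5 fell by 2.36 (SE 0.54, adjusted p = 0.0185). Without adult 1 the changes of Vtn (-1.69, adjusted p = 0.0851) and Atp13a5 (-1.73, adjusted p = 0.187) were not called, and that of Rgs5 was (1.0, adjusted p = 0.000657). In these sums alone, fewer cells of a type cannot be told apart from less RNA of the gene per cell. Levels within pericyte-like cells are given below.

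The contractile members had positive differences that did not pass. Myl9 differed by 0.70 (SE 0.27, adjusted p = 0.0765), Des by 0.74 (SE 0.36, adjusted p = 0.168), Acta2 by 1.09 (SE 0.59, adjusted p = 0.231), Tagln by 1.05 (SE 0.70, adjusted p = 0.323) and Cnn1 by 1.39 (SE 0.69, adjusted p = 0.193) in this edgeR test. Myh11 (-0.20, SE 0.46) and Kcnj8 (-0.57, SE 0.26) lay on the other side, also without a call, although Kcnj8 was called lower with cells named without clustering (-1.01, adjusted p = 0.0118). These members depend on which cells and adult libraries enter. Without cells that held 3 or more of the 7 endothelial markers, 7 members were called, where 25.8% of all genes were in that fit (12% higher and 13.8% lower), with Rgs5, Myl9, Cnn1 and Des higher and Vtn, Atp13a5 and Kcnj8 lower. Without adult 2 and 3, which leaves adult 1 alone to stand for the group, Acta2 (2.56), Myl9 (1.52), Des (1.70) and Rgs5 (1.36) were called higher, where 11.7% of all genes were. Without adult 1 the differences were smaller, at 0.39 for Acta2, 0.34 for Tagln, 0.20 for Myl9, 0.19 for Des and 0.91 for Cnn1, and that of Myh11 was -0.78. Myh11 turned positive, without a call, when cells with endothelial markers were left out (0.50) and with cells named without clustering (0.35). Naming without clustering also leaves out cells with 3 or more endothelial markers, so these are not separate checks. Cnn1 was called without juvenile 4 (1.65, adjusted p = 0.00961) and with the replicate number as a block (1.54, adjusted p = 0.0358). Without the filter on low counts Myl9 (0.77) and Des (0.82) were called and Atp13a5 was not (adjusted p = 0.0524).

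No member was called in aged against adult mural cells, where 2 of 6527 genes were called (0.0306%, with 0.0153% in each direction) and 515 had an unadjusted p under 0.05. DESeq2 called 1 gene there and no member. The differences in log2 of the members ran from -1.08 for Cnn1 (SE 1.08) to 0.27 for Kcnj8 (SE 0.30), and that of Vtn was 0.24 (SE 0.36, adjusted p = 0.898) although its aged libraries lay above all adult ones.

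In EAE against adult mural cells 294 genes were called (4.5%, with 2.82% higher and 1.69% lower), and none was a member. Of the members the largest negative differences were those of the pericyte genes Atp13a5, with -1.42 (SE 0.66, adjusted p = 0.322) and Vtn, with -0.96 (SE 0.37, adjusted p = 0.193), in libraries that did not overlap with adult ones. Cnn1 (1.0, SE 0.83), Tagln (0.81, SE 0.77) and Myh11 (0.63, SE 0.54) had the largest positive ones. Without adult 1 these were 0.50, 0.0973 and 0.0479, and with adult 1 as the only adult unit 1.76, 2.31 and 1.67. The sums of endothelial and of monocyte and macrophage markers given above were highest in EAE mural cells. No fit left out cells with markers of monocytes and macrophages, and their part in these values was not tested. Without cells with endothelial markers Vtn differed by -0.86, Atp13a5 by -1.43, Cnn1 by 2.82, Tagln by 1.86 and Myh11 by 1.56, and 166 genes were called. Without the mixed subcluster, a choice made after seeing the data, they differed by -0.82 and -1.34, and 84 genes were called. Without adult 2 and 3, Myl9 (1.03, adjusted p = 0.00216) and Des (1.21, adjusted p = 0.0302) were called higher in EAE, against adult 1 alone, where 3.68% of genes were. Without the filter on low counts Vtn was called lower (-1.05, adjusted p = 2.64e-05).

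Within pericyte-like cells, where Acta2, Tagln, Myh11 and Cnn1 were close to 0, Vtn and Atp13a5 were lower and Rgs5 higher in juvenile than in adult libraries. Of the 10 members, 7 passed the filter on low counts, and Tagln, Myh11 and Cnn1 did not. In juvenile against adult cells 4 members were called, where 31.1% of 3648 genes were (14.8% higher and 16.3% lower). Rgs5 was at 16752, 14064.5, 17468 and 14435 CPM in juvenile and at 5596, 7445 and 7630.3 CPM in adult pericyte-like cells. It rose by 1.12 (SE 0.15, adjusted p = 8.36e-07). The lowest juvenile library lay above every library of the other groups.

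Vtn was at 8348, 8860.3, 12036 and 11903 CPM in juvenile and 23452.5, 28324 and 28280.4 CPM in adult pericyte-like cells. It fell by 1.48 (SE 0.14, adjusted p = 5.21e-09), and the groups did not overlap. Of 6 members with a mean of at least 100 CPM, 4 did not overlap between juvenile and adult, where 35.6% of genes did not. Atp13a5 was at 1127, 1009, 1151 and 1611 CPM in juvenile and 3587, 2637 and 2517 CPM in adult pericyte-like cells, and fell by 1.5 (SE 0.17, adjusted p = 1.03e-07). Both were also called without adult 1. Kcnj8, also a pericyte gene, was not called. It was at 2187, 1694, 2787 and 2109 CPM in juvenile and 1859, 2051 and 1737 CPM in adult cells, a difference of 0.07 (SE 0.16, adjusted p = 0.780). Myl9 rose by 0.47 (SE 0.16, adjusted p = 0.0249) from 1853, 3206 and 2922 CPM in adult to 3398, 3379, 4288 and 3906 CPM in juvenile cells, but differed by 0.20 (adjusted p = 0.539) without adult 1, the lowest library. These comparisons set the juvenile pericyte-like cluster against the other one.

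In aged pericyte-like cells no member was called, where 10 of 3648 genes were (0.274%, with 0.0274% higher and 0.247% lower) and 341 had an unadjusted p under 0.05. Vtn, at 34248 and 34732 CPM, Kcnj8, at 2869.8 and 2665 CPM, Rgs5, at 9224 and 8650.2 CPM, and Atp13a5, at 4085 and 3647 CPM, were each above all adult libraries, with log2 differences of 0.31, 0.45, 0.34 and 0.21 and adjusted p from 0.409 to 0.817 by edgeR. These were 4 of the 6 members with a mean of at least 100 CPM, and no such member lay below all adult libraries. In that comparison 29.4% of all genes did not overlap, with 19.6% higher and 9.84% lower. Of the members near 0 in these cells, Tagln had no UMI in either aged library and 1 to 3 in adult ones, and Myh11 was at 43.9 and 65.5 CPM in aged against 29.6 to 37.6 CPM in adult libraries. In EAE pericyte-like cells 1 member was called, where 2.58% of genes were (1.59% higher and 0.987% lower). Kcnj8 rose by 0.75 (SE 0.18, adjusted p = 0.0227), from 1859, 2051 and 1737 CPM in adult to 3495 and 3284 CPM. This call did not hold without adult 1 (adjusted p = 0.0805), without adult 2 and 3 (0.0859) or without either EAE library (0.202 and 0.197), while the difference stayed between 0.71 and 0.78 in each of these fits, nor without the filter on low counts (0.61, adjusted p = 0.0815). Rgs5 (0.47, SE 0.17) and Atp13a5 (-0.65, SE 0.21, adjusted p = 0.0943) were not called, although Atp13a5 was without adult 2 and 3 (-0.91, adjusted p = 0.0106) and without the filter (-0.78, adjusted p = 0.00602), and Vtn, at 25409 and 23802 CPM, differed by -0.17 (SE 0.17).

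Within smooth-muscle-like cells Myh11 was lower and Rgs5 higher in juvenile than in adult libraries, and the other contractile members were not called. All 10 members were tested, and in juvenile against adult cells 2 were called, where 15.9% of 2790 genes were (6.52% higher and 9.39% lower). Myh11 was at 873, 956, 837 and 577 CPM in juvenile, 2739.85, 2174 and 1825 CPM in adult, 1819.75 and 1358 CPM in aged and 2250.4 and 2073 CPM in EAE cells. It fell by 1.60 in juvenile against adult cells (SE 0.23, adjusted p = 9.58e-05), and every juvenile library lay below every other. Between juvenile and adult 32.2% of genes did not overlap. Rgs5 was at 9155, 9256, 12249 and 14789 CPM in juvenile, 4449, 5506 and 2188 CPM in adult, 3492 and 2566 CPM in aged and 2839 and 3519.7 CPM in EAE cells. It rose by 1.41 in juvenile cells (SE 0.24, adjusted p = 0.000492). Both calls were also made without adult 1.

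For the other contractile members the juvenile difference within smooth-muscle-like cells was small and negative in the main fit, in place of the positive one in whole mural cells. Acta2 differed by -0.20 (SE 0.17), Tagln by -0.26 (SE 0.21), Myl9 by -0.07 (SE 0.19), Cnn1 by -0.12 (SE 0.49) and Des by -0.12 (SE 0.24), with adjusted p from 0.431 to 0.906 by edgeR. The signs of Myl9, Cnn1 and Des turned when single units were left out. Cnn1, for example, differed by 0.20 without adult 1 and by 0.14 without juvenile 4. The level of Acta2 lay between 11824 and 15974 CPM in juvenile and between 14355 and 14867 CPM in adult libraries. In aged and in EAE cells no member was called. In aged against adult cells no gene was called at all, with 196 of 2790 at an unadjusted p under 0.05, and in EAE 18 genes were (0.645%, with 0.394% higher and 0.251% lower). DESeq2 was not run on these cells. Only 12 to 34 smooth-muscle-like cells entered from each aged, adult and EAE library, against 23 to 115 in juvenile ones, and 3 counts corresponded to 25.97 to 73.8 CPM there, so Kcnj8 and Atp13a5 were near this limit and no fold is given for them.

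**Figure D3:**
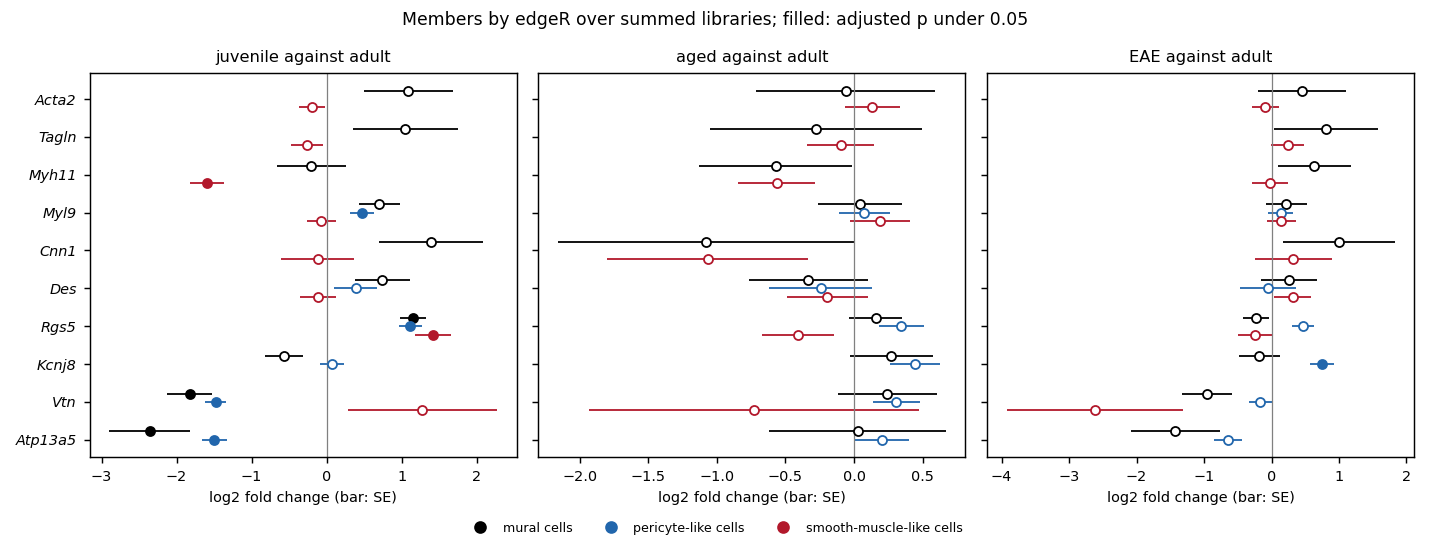
Log2 fold change of the members against adult by edgeR (horizontal axis, bars: SE) in whole mural cells (black), pericyte-like (blue) and smooth-muscle-like cells (red), with filled points for an adjusted p under 0.05 and only members with a mean of at least 100 CPM in the population. Rgs5 is called in all 3 populations in juvenile, the positive differences of Acta2, Tagln and Cnn1 in whole mural cells are not seen in smooth-muscle-like cells, and the scales of the 3 panels differ.

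The mix of the populations was then taken from co-detection in single cells. A cell was counted as contractile when it held at least 2 of Acta2, Tagln and Myh11, and as pericyte when it held at least 2 of Kcnj8, Vtn and Atp13a5, after thinning to 1500 UMIs. Shallower cells were left out: 2 of 531 juvenile, 175 of 431 adult, 178 of 281 aged and 141 of 272 EAE cells. In endothelial cells 7 of 17874 were contractile and 2 pericyte by this rule, and in microglia 2 and 5 of 7623, with median depths of 2241 to 7948 and 2169 to 3596 UMIs per library against 1297.5 to 5094 in mural cells.

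Most mural cells held 1 trio and not the other. Of 1019 thinned cells 391 were contractile only, 507 pericyte only, 54 both and 67 neither. The summed UMIs of the contractile trio were 0 in 497 cells (48.8%) and 10 or more in 399 cells (39.2%), with 49 cells (4.81%) in between at 3 to 9. The pericyte trio was more graded, with 186 cells (18.3%) at 3 to 9 UMIs, 145 of them juvenile. Of cells in the subclusters made without the members, 407 of 422 smooth-muscle-like cells were contractile and 394 of 397 pericyte-like cells were pericyte. Of 111 thinned cells of the unnamed cluster 31 were contractile, 79 pericyte and 20 both (18.0%). The plot of single cells shows these groups.

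**Figure D4:**
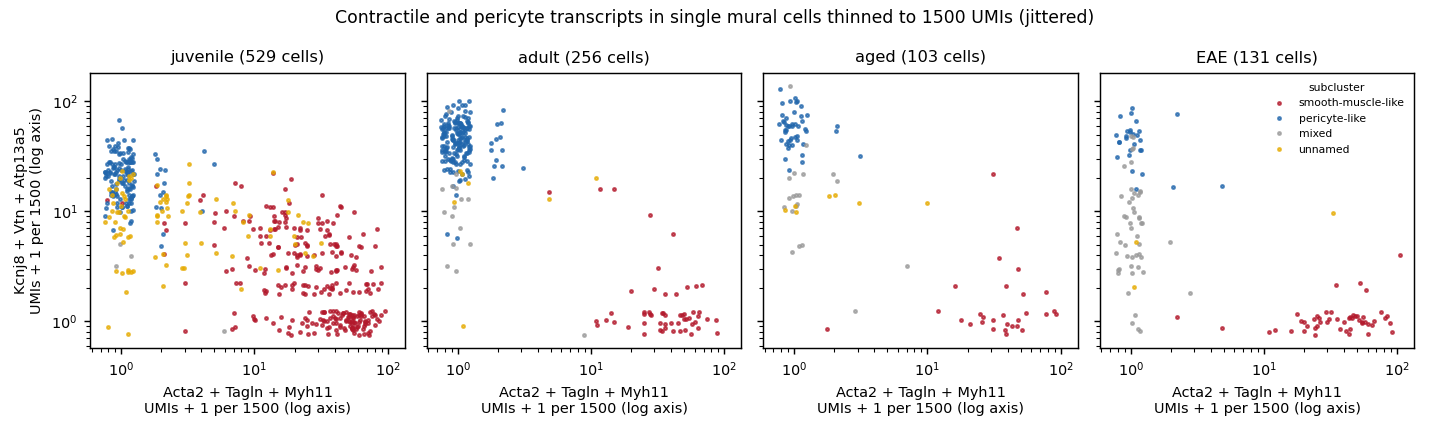
UMIs of Acta2, Tagln and Myh11 (horizontal) against UMIs of Kcnj8, Vtn and Atp13a5 (vertical) in single mural cells thinned to 1500 UMIs, both as UMIs + 1 on log axes with jitter, 1 panel per group, coloured by subcluster. Most adult, aged and EAE cells lie along 1 axis or the other, and many juvenile smooth-muscle-like cells also hold a few pericyte transcripts.

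Co-detection of both trios in 1 cell had its highest share in juvenile libraries. That share was 7.88% ± 3.26 (n = 4) in juvenile, 1.15% ± 0.47 in adult, 1.96% ± 0.24 in aged and 0.746% ± 1.06 in EAE mural cells (n = 2 each). In juvenile 1 to 4 it was 9.5%, 11.4%, 3.95% and 6.67% (19, 22, 3 and 4 cells), so most of these cells came from juvenile 1 and 2. The 95% Clopper-Pearson interval of juvenile 3 (0.82 to 11.1) overlapped that of aged 1 (0.05 to 11.3), the highest library of the other groups at 2.13%. Of the thinned smooth-muscle-like cells 27 of 287 juvenile, 1 of 55 adult, 2 of 29 aged and 0 of 51 EAE cells held both, and the median juvenile smooth-muscle-like cell held 15 UMIs of Rgs5 and 1 of the pericyte trio, where adult ones held 3 and 0. Of these 287 juvenile cells, 112 came from juvenile 1 and 115 from juvenile 2. Before thinning the juvenile cells were the deepest (median 5544 UMIs in smooth-muscle-like cells, against 3109 to 3257.5 in the other groups), and without thinning the share with both was 19.5% in juvenile and 1.06% to 1.84% in the other groups. Cells with both kinds had a median of 5019 UMIs, and 9 of 54 held 3 or more endothelial markers, against 76 of 391 contractile-only cells. The part of 2 cells read as 1 in this share was not tested.

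Contractile cells made up 62.0%, 63.2%, 51.3% and 35.0% of thinned mural cells in juvenile 1 to 4. They made up 5.93% in adult 1 (8 of 135 cells, 95% Clopper-Pearson interval 2.59 to 11.3), 30.0% in adult 2 (18.8 to 43.2) and 50.8% in adult 3 (37.7 to 63.9). In aged libraries they were 25.5% and 30.4%, and in EAE libraries 43.8% and 37.3%. Pericyte cells made up 40.0%, 43.0%, 52.6% and 68.3% in juvenile, 91.1%, 68.3% and 49.2% in adult, 66.0% and 58.9% in aged and 42.2% and 47.8% in EAE libraries. For the contractile share every group overlapped with the adult libraries, while both EAE libraries lay below all adult ones for the pericyte share.

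The mean contractile share was 52.9% ± 13.1 (n = 4) in juvenile, 40.5% ± 4.55 in EAE, 27.9% ± 3.41 in aged and 23.2% ± 24.4 in adult units (n = 2 each). Exact two-sided permutation tests over units gave p = 0.267 for juvenile against adult, 1.0 for aged and 0.667 for EAE, where the smallest p these designs allow is 0.133 with 4 juvenile units and 0.333 with 2 units a group. The pericyte share was 51.0% ± 12.8 in juvenile, 74.9% ± 22.9 in adult, 62.4% ± 4.97 in aged and 44.97% ± 3.94 in EAE, with p = 0.267, 1.0 and 0.333 in the same exact tests. Without adult 1 the contractile share of juvenile differed from that of adult by 12.5 percentage points, against 29.7 with it, and that of EAE by 0.122, against 17.4.

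**Figure D5:**
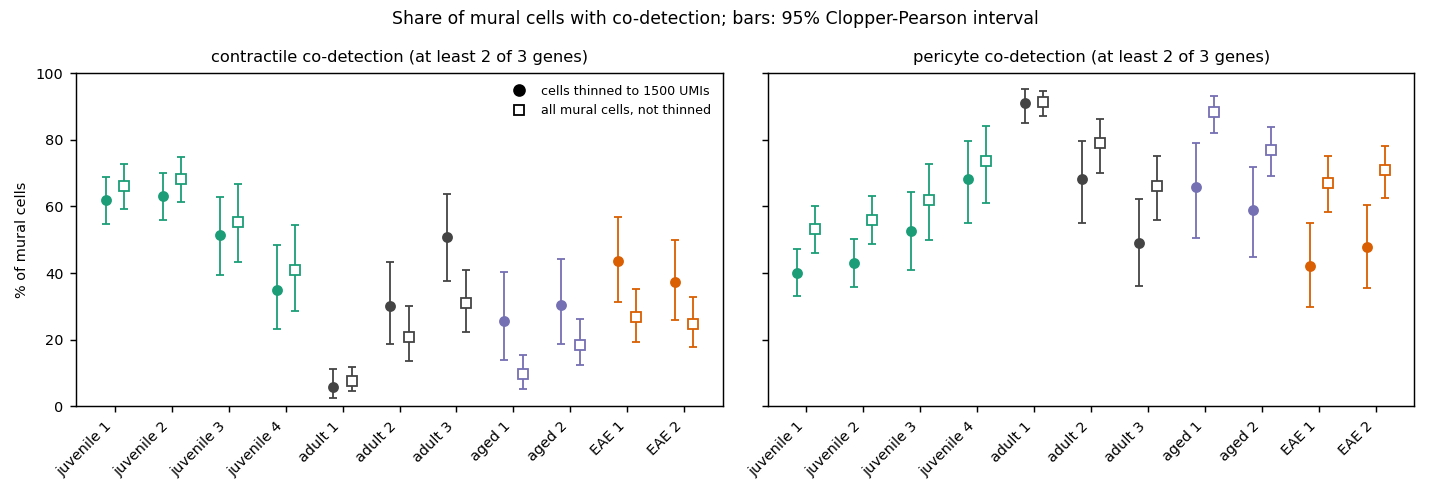
Share of mural cells with contractile (left) and pericyte (right) co-detection in each library (vertical axis: percent of mural cells), in cells thinned to 1500 UMIs (filled circles) and in all mural cells without thinning (open squares), with 95% Clopper-Pearson intervals. Adult 1 has the lowest contractile and the highest pericyte share, and the squares of the aged libraries lie below their circles for contractile and above them for pericyte co-detection.

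The depth minimum took more pericyte-like than smooth-muscle-like cells from the older groups. Below 1500 UMIs were 40.3% of adult, 74.0% of aged and 77.2% of EAE pericyte-like cells, against 16.7%, 12.1% and 21.5% of smooth-muscle-like ones, and 0.690% and 0% of the 145 and 287 juvenile cells. Adult 1 ran the other way, with 33.1% of its pericyte-like cells and 8 of its 16 smooth-muscle-like ones. All mural cells without thinning gave contractile shares of 57.7% in juvenile, 16.8% in adult, 14.1% in aged and 25.8% in EAE, and pericyte shares of 61.2%, 82.0%, 82.7% and 69.0%. Counted by subcluster, 50.4% ± 9.61 of juvenile, 15.6% ± 11.96 of adult, 11.9% ± 5.19 of aged and 24.0% ± 2.81 of EAE mural cells were smooth-muscle-like, and 34.4% ± 17.1, 68.8% ± 11.7, 64.2% ± 9.03 and 45.1% ± 5.46 pericyte-like. The exact test gave p = 0.133 for juvenile against adult in both, the smallest it allows. The aged contractile share was 4.78 percentage points above the adult one among thinned cells and differed by -2.76 among all cells, so its direction rests on this choice. Without cells with endothelial markers the contractile share of thinned cells was 55.3% in juvenile, 20.02% in adult, 28.5% in aged and 55.7% in EAE, and without the mixed subcluster 53.6%, 23.9%, 34.7% and 63.3%, so the EAE mean, below the juvenile one among all thinned cells, was above it in both.

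The remaining members followed the classes made by the other 6. In 10 libraries with at least 10 cells of each class, Myl9, Des and Cnn1 were higher in contractile-only than in pericyte-only cells in 10 of 10, with medians of 8602 against 3086 CPM for Myl9 and 775 against 268 CPM for Des. Rgs5 was lower in contractile-only cells in 10 of 10, at 0.293 to 0.992 times its level in pericyte-only cells.

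Other genes of these programmes were followed in whole mural cells, from lists of contractile genes (25 of 28 tested), pericyte genes (22) and basement membrane and recruitment genes (22), which had in part served to name the cells. Their values are not given without adult 1, where fewer genes were called in juvenile and EAE mural cells, as counted below. In juvenile against adult cells 2 contractile genes rose, 4 fell and 19 did not pass. Tpm1, a tropomyosin of the thin filament, rose by 1.30 (SE 0.41, adjusted p = 0.0482). Actg2, gamma smooth muscle actin, was called with 1214 UMIs in juvenile mural cells (150 to 523 CPM) and 1 UMI in adult ones. Sncg, a synuclein, fell from 127–437 CPM to 3.65–36.1 CPM, Casq2, the calcium store protein of muscle, from 279–329 to 41.3–114 CPM, and Pln, an inhibitor of the calcium pump of that store, from 109–417 to 21.9–70.4 CPM. The list's median difference was 0.25, against -0.03 over all genes tested, of which 12.1% were called higher and 13.2% lower. Within smooth-muscle-like cells 1 of 23 tested genes of this list rose and 8 fell, where 6.52% and 9.39% of all genes did, with a median of -0.74 against 0.005 over all genes. Sncg (-5.09) and Pln (-3.50), which fell, lead the older of the 2 clusters compared there and Actg2 the juvenile one, so these values describe the clusters and are no separate finding.

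Of the 22 pericyte genes 13 fell and 2 rose in juvenile mural cells, where 13.2% and 12.1% of all genes did, with a median of -0.82 against -0.03. Ggt1, an ectoenzyme of glutathione breakdown, was at 6.57–34.2 CPM in juvenile and 226–338 CPM in adult libraries (-4.32, SE 0.44, adjusted p = 0.000117). Pla1a, a phospholipase, fell by 2.61 and P2ry14, a receptor for UDP-glucose, by 2.26. Tbx18, a transcription factor of mural cells, rose by 0.82 (SE 0.29, adjusted p = 0.0477), as did Gucy1a3, a subunit of the nitric oxide receptor, by 0.58 (SE 0.17, adjusted p = 0.0202). In these sums fewer pericytes cannot be told apart from less RNA per cell. Within juvenile pericyte-like cells 10 of 21 genes of this list fell and 2 rose, where 16.3% and 14.8% of all genes did. Their median was -0.42 there, and that comparison sets 1 cluster against another.

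Of the 22 basement membrane genes 9 rose and 3 fell in juvenile mural cells, where 12.1% and 13.2% of all genes did (median 0.38, against -0.03 over all genes). Col4a1 and Col4a2, the chains of basement membrane collagen, rose by 1.90 (SE 0.20) and 2.05 (SE 0.20), from 394–537 to 1525–1899.6 CPM and from 207–359 to 1056–1242 CPM. Col18a1 rose by 2.56. S1pr1 (-1.74), Acvrl1 (-1.45) and Sparcl1 (-1.39) fell, of which S1pr1 and Acvrl1 are receptors best known in endothelium.

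In aged mural cells no gene of the 3 lists was called. In EAE 4 of 22 pericyte genes fell and none rose, where 1.69% and 2.82% of all genes did. Among them were Anpep, a surface peptidase (-1.28, SE 0.26, adjusted p = 0.0101), Cspg4, the proteoglycan NG2 (-1.23, SE 0.22, adjusted p = 0.00507), and Slc19a1, a folate carrier (-1.03, SE 0.27, adjusted p = 0.0379). Of the basement membrane list 5 fell, among them Nid1 (-1.43), Itga7 (-1.23) and Lama4 (-1.19), while S1pr1 (1.79) and Fn1 (1.35) rose. No contractile gene of the list was called there. The sum of endothelial markers given above was highest in EAE mural cells. Values of the list genes are not given here for the fits without cells with endothelial markers (166 genes called) or without the mixed subcluster (84). Within EAE pericyte-like cells 3 of 21 pericyte genes were called higher (Zic1 by 0.88, Pla1a by 0.83 and Higd1b by 0.75) and none lower, where 1.59% and 0.987% of all genes were. The differences of 13 of the 21 were positive (49.1% of all genes), with a median of 0.25 against -0.39 for this list in whole EAE mural cells, and no test was made between the populations. No gene of the basement membrane list was called there. Anpep differed by -0.36, Cspg4 by -0.63 and Slc19a1 by -0.42, without a call.

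The genes whose levels ran closest to the contractile trio over the 22 sums of both subclusters were Tpm2 (Pearson r = 0.983) and Tpm1 (0.981), both tropomyosins, Kcnab1 (0.980), Crip1 (0.979) and Hspb7 (0.979), among 3965 genes. Those closest to the pericyte trio were Pla1a (0.963), Sept4 (0.958), Plxdc1 (0.955), Plxdc2 (0.954) and Slc19a1 (0.947). The 22 points come from 11 libraries, 2 sums each that share their depth, and no test was made. Each library gives a sum of either subcluster, so a gene that differs between the subclusters gets a high r whatever its changes between libraries. Kcnab1 had medians of 197 CPM in smooth-muscle-like and 0 CPM in pericyte-like cells, and Pla1a of 0 and 431 CPM. Pla1a is also a leading gene of the larger pericyte-like cluster. The ranking therefore describes the subclusters and is no separate finding. By the same measure Rgs5 had r = 0.687 with the pericyte trio and -0.559 with the contractile one.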

How the data were processed

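Single cells of 11 cortex libraries were measured by the 10x 3′ v2 assay. Per the labels, the authors made the deposited UMI count tables (whole counts per gene and cell, not normalized) with bcl2fastq 2.19.1.403, UMI-tools 0.5.3, STAR 2.5.3a and featureCounts of Subread 1.6.1 on mm10; these names and versions come from the submitters' processing notes. Multi-mapped reads and strand setting are not given in the sources used here.

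From these counts, cells with more than 500 and under 6000 genes and under 25% mitochondrial UMIs were kept (50625 of 54646 barcodes), and genes seen in at least 3 cells. Cells were clustered (2000 variable genes, 12 principal components, 20 neighbours, Leiden resolution 0.5) and mural cells subclustered on 500 variable genes, the 10 members left out of both. These 500 were drawn from 695 genes only. Each was seen in at least 10 mural cells and was at least as high in mural cells as in every other cluster. No doublet caller was run. Counts were summed per library and cell population (at least 10 cells) and fitted with edgeR 4.0.16 in R 4.3.3 (TMM, filterByExpr, robust quasi-likelihood F-test, all 4 groups in 1 fit, contrasts against adult, Benjamini-Hochberg adjustment over all genes tested, calls at 0.05). Fold changes of members are read where their mean was at least 100 CPM. Shares were compared by exact permutation tests over units, and intervals are Clopper-Pearson at 95%, covering counting error only, as does the floor of 3 counts. Python 3.11.15, numpy 2.4.6, scipy 1.17.1, scikit-learn 1.9.0, leidenalg 0.10.2 and matplotlib 3.10.9 were used, and the fits were tested on simulated data. There, of genes given a change of 1 on the log2 scale, 28.0%, 14.1% and 22.7% were called in mural cells (juvenile, aged, EAE). In pericyte-like cells these were 52.2%, 33.0% and 30.5%, and in smooth-muscle-like cells 30.8%, 10.3% and 12.8%. A member without a call may therefore have changed by this much.

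Adult 2 and 3 were treated as 1 unit from the start because earlier results of these data had them within sampling noise. Mural counts here did not bear this out: the chi-square per gene was 2.02, against 1.46 to 4.41 between libraries within the other groups. It was lower, at 1.46 and 1.79, between juvenile 1 and 2 and between EAE 1 and 2, which count as separate units. Juvenile 1 and 2 lay further from juvenile 3 and 4, at 3.15 to 4.41. The spreads and exact tests of the groups therefore do not rest on like units. Fits with all 11 libraries apart were run beside those with these units. The members, lists and tests were chosen with earlier results of these data known. Named genes are all members and, from each list, up to 3 called genes per direction with the largest fold change. Alternatives were 11 separate libraries, near-identical libraries summed, a replicate block, each replicate unit left out (adult 2 and 3 together), RLE size factors, DESeq2 1.42.0, no filter on low counts, cells with endothelial markers left out, cells named without clustering (1262 cells, 1189 of them in mural clusters), a clustering resolution of 1.0 and other thinning depths. Cells named without clustering held at least 3 mural markers and under 3 of the 7 endothelial markers. Leaving out the mixed subcluster and counting shares by subcluster were added after seeing the data. The numbers of the libraries were checked for pairing and do not pair them.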

Additional observations from a re-analysis of the deposited data

Results flagged for a closer look

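Among juvenile smooth-muscle-like cells, Tagln, the actin-binding protein transgelin, was at 6024 CPM in juvenile 4 and at 8342 to 8650.0 CPM in the other juvenile libraries, a gap of 0.883 of the whole range. Juvenile 4 also had the fewest such cells of its group (23). Of 28 groups of 4 libraries tested in this way, chance alone flags about 1 in 20.

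Rgs5 had differences of opposite sign in the 2 populations of mural cells. In aged against adult libraries it differed by 0.34 in pericyte-like and by -0.41 in smooth-muscle-like cells (log2), and in EAE by 0.47 and -0.24, with every unit on its own side of the adult units. None of these passed its test, the difference between the populations was not tested, and 30 comparisons were looked through. In smooth-muscle-like cells adult 3 alone, at 2188 CPM, lay below the aged and EAE libraries.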

How the results depend on the processing

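The juvenile rise of Rgs5 was called under every alternative run in each of the 3 populations. In smooth-muscle-like cells these were separate and summed libraries, the replicate block and units left out, while RLE size factors, DESeq2, no filter and other choices of cells were not run there. Members with a mean under 100 CPM in a population were left out of the following counts, which cover 10 members in mural, 6 in pericyte-like and 8 in smooth-muscle-like cells. Over their alternatives, values in mural cells kept direction and side of the threshold in 550 instances, changed direction in 32, gained a call in 15 and lost one in 3. The clustering resolution of 1.0 gave the same 1515 mural cells, so its values could not differ and are counted as kept. Fits that left out a unit of a group outside the comparison are counted too. In pericyte-like cells these were 269, 11, 2 and 6, and in smooth-muscle-like cells 295 kept both and 17 changed direction. Kcnj8, left out there, was called in juvenile smooth-muscle-like cells without EAE 1 (adjusted p = 0.0441) and without EAE 2 (0.0486), against 0.120 with all libraries, where the adult libraries held 0, 0 and 2 UMIs, so no fold is given. Counts of genes called moved by over 1.5 times as follows. With DESeq2 they were 864 (mural, juvenile), 1 (aged) and 153 (EAE), and 486, 0 (168 at an unadjusted p under 0.05) and 37 in pericyte-like cells. With no filter on low counts they were 66 and 531 (mural, aged and EAE) and 36 (pericyte-like, aged). With RLE size factors 6 were called in aged pericyte-like cells. In EAE mural cells 166 were called without cells with endothelial markers and 84 without the mixed subcluster, and in aged ones 1 with cells named without clustering. With near-identical libraries summed, which leaves fewer samples, they were 17 (pericyte-like, aged), 254 and 5 (smooth-muscle-like, juvenile and EAE).

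The replicate numbers name libraries only: same-numbered libraries correlated at -0.15 to 0.17 in mural cells (2 of 13 pairs over 0.1). With the replicate block 1562, 4 and 272 genes were called in mural, 1176, 46 and 146 in pericyte-like and 386, 1 and 23 in smooth-muscle-like cells (juvenile, aged, EAE), Des in EAE pericyte-like cells differed by 0.14 and Cnn1 in juvenile smooth-muscle-like cells by 0.10. Cnn1 was called in juvenile mural cells under the block (1.54, adjusted p = 0.0358), and no other call of a member changed.

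Directions turned as follows (log2; the cause was not tested). Without cells with endothelial markers and with cells named without clustering, Myh11 in juvenile mural cells differed by 0.50 and 0.35, and in aged ones Acta2 by 0.46 and 0.40, Tagln by 0.21 and 0.12 and Cnn1 by 0.50 and 0.71. Both settings leave out cells with 3 or more endothelial markers, so their likeness is in part built in. Without the mixed subcluster Acta2 differed by 0.18 in aged, and Rgs5 by 0.0915 and Kcnj8 by 0.0659 in EAE mural cells. With 11 separate libraries Myl9 differed by -0.15 in aged mural and -0.0089 in aged pericyte-like cells, and Myh11 by 0.0273 in EAE smooth-muscle-like cells. With no filter Myl9 differed by -0.0149 and Atp13a5 by -0.0014 in aged mural cells, and Myl9 by -0.0131 in EAE pericyte-like cells. The aged contractile share differed from adult by -1.17 percentage points when thinned to 1000 UMIs, -2.76 not thinned, -0.97 with 11 libraries and -3.74 by subcluster, and the aged pericyte share by 0.69 not thinned.

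Leaving out 1 replicate unit at a time (adult 2 and 3 together, never singly) gave 849 to 1704, 1 to 17 and 86 to 378 genes called in mural (juvenile, aged, EAE), 599 to 1137, 0 to 16 and 19 to 120 in pericyte-like and 181 to 452, 0 to 7 and 6 to 31 in smooth-muscle-like cells. The juvenile counts were lowest without adult 1 in mural (849) and pericyte-like cells (599) and without adult 2 and 3 in smooth-muscle-like cells (181). The EAE counts fell to 172, 89 and 86 in mural and to 46, 35 and 19 in pericyte-like cells without adult 1, EAE 1 and EAE 2. The aged contractile share differed by -12.5 to 22.0 and the pericyte share by -28.7 to 3.69 percentage points. Members that changed sign in this way ranged, in mural cells, from -0.78 to 0.85 (Myh11, juvenile), in aged from -0.78 to 1.40 (Acta2), -1.0018 to 1.21 (Tagln), -1.17 to 0.45 (Myh11), -0.47 to 0.84 (Myl9), -0.90 to 0.60 (Des), -0.0014 to 0.35 (Rgs5) and -0.38 to 0.65 (Atp13a5), and in EAE from -0.25 to 1.92 (Acta2), -0.28 to 1.03 (Myl9), -0.29 to 1.21 (Des) and -0.32 to 0.0258 (Kcnj8). In pericyte-like cells they ranged from -0.0445 to 0.18 (Kcnj8, juvenile), in aged from -0.21 to 0.43 (Myl9), -0.50 to 0.0191 (Des) and -0.0372 to 0.52 (Atp13a5), and in EAE from -0.15 to 0.47 (Myl9) and -0.31 to 0.19 (Des). In smooth-muscle-like cells they ranged, in juvenile, from -0.20 to 0.20 (Myl9), -0.40 to 0.20 (Cnn1) and -0.34 to 0.39 (Des), in aged from -0.35 to 0.14 (Tagln), -0.40 to 0.28 (Des) and -1.64 to 1.54 (Vtn), and in EAE from -0.14 to 0.0587 (Acta2), -0.10 to 0.16 (Myh11) and -0.0113 to 0.63 (Cnn1). A lone adult unit was assumed to vary like the other groups. The depth of 273597 to 1065996 UMIs per juvenile and 212768 to 487755 per other mural sum, and 12 to 34 smooth-muscle-like cells per older library, limit what could be seen of members with few UMIs such as Cnn1.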

Other observations

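The unnamed mural cluster, led by Steap4 and Ccl19, held 131 cells, 95 of them juvenile (48 and 38 from juvenile 1 and 2). Its 94 thinned juvenile cells had medians of 1 UMI of the contractile trio, 8 of the pericyte trio and 19 of Rgs5, between the smooth-muscle-like (32, 1 and 15) and the pericyte-like (0, 21 and 23) juvenile cells for both trios. The share of mural cells with neither trio was 15.2% ± 1.67 in EAE and 11.6% ± 1.32 in aged libraries, against 4.004% ± 3.17 in juvenile and 3.05% ± 1.97 in adult ones (thinned cells, n = 2, 2, 4 and 2), and 25 of these 67 cells held 3 or more endothelial markers. The mixed subcluster held 18 of the 20 such EAE cells and 9 of the 12 aged ones, against 5 of 8 adult and 0 of 27 juvenile ones.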
